A study of Mus musculus with 6 samples.

Results

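This account covers the transcripts of enzymes, transporters and regulators that make, store and burn glucose in liver, in 6 mice of C57 background whose labels give the genotype as Ppara KO. The genes were taken from a list of 50, and 44 of them had a probe set paired with that gene alone in the platform annotation and were tested among 12393 genes. Of the other 6 listed genes, Gapdh was paired alone only with the array maker's control probe sets, and Gpi1, Pfkfb1, Eno1, Galk1 and G6pdx had no probe set of their own in that annotation. All mice were 1 month old and all were Ppara knockouts, so none of the values come from livers with a labelled intact Ppara gene. In 3 mice, called TFEB-injected here, an adenoviral vector for the transcription factor TFEB had been injected, and the series title places its overexpression in liver. The other 3 mice were not injected. No analysed group received a vector without TFEB, so effects of TFEB, of the vector and of the injection cannot be told apart. The labels give neither the promoter of the vector, the TFEB species, the dose, the time after injection, the sex of the mice nor their feeding state at collection.

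Liver keeps blood glucose steady. After a meal it takes up sugar, stores it as glycogen and sends the rest through glycolysis to pyruvate, and in fasting it releases glucose by breaking down glycogen and by gluconeogenesis, which rebuilds glucose from lactate, amino acids and glycerol. The pyruvate dehydrogenase complex commits pyruvate to acetyl-CoA, and its kinases switch it off by phosphorylation when fat is the main fuel. TFEB is known as an activator of lysosomal, autophagy and lipid catabolism genes, and Ppara encodes a nuclear receptor that drives fatty acid oxidation in fasting.

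Expression was measured on 1 array per mouse, and levels are RMA values on the log2 scale, so a difference of 1 is a doubling. The labels call the arrays biological replicates. Array-to-array correlations over the tested genes were 0.998 to 0.999 within the not-injected group and 0.995 to 0.998 within the TFEB-injected group. They were 0.989 to 0.993 between the groups. The Tfeb probe set read 7.55 ± 0.07 (SD, n = 3) in not-injected and 7.59 ± 0.12 in TFEB-injected livers (limma adjusted p = 0.777), and that of Ppara 8.95 ± 0.07 and 9.08 ± 0.04 (adjusted p = 0.149). The labels do not say which part of Ppara was deleted or whether the vector's transcript carries the probed Tfeb sequence, so neither probe set tests the labels. Hepatocyte markers (Alb, Ttr, Apoa1 and others, 10 tested) had summed levels of 17.64 in each not-injected array and 17.54 to 17.58 in the TFEB-injected arrays. Markers of muscle, another rich source of glycolytic transcripts, gave summed levels of 8.74 to 8.87 and 8.72 to 8.81, with 0 of 8 passing the test. The number of arrays limits the precision. In bulk liver RNA, fewer cells of a type and less RNA per cell cannot be told apart.

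In TFEB-injected livers 4 of 6 gluconeogenesis genes and both tested fructose and galactose genes of the list were lower, and 6 of 15 glycolysis genes were higher. All 7 listed genes of the pyruvate dehydrogenase complex and its kinases differed from not-injected livers, 5 upward and 2 downward. Of the 44 tested genes, 13 rose and 10 fell at a limma adjusted p under 0.05, or 29.5% and 22.7%. Over all 12393 tested genes 9.99% rose and 7.92% fell, 17.9% together (1238 and 981 genes; after median centring of the arrays 1060 and 1352). The median log2 change was -0.04 over the 44 genes and -0.01 over all genes. Groups did not overlap in 13 genes that were higher and 16 that were lower in the TFEB-injected livers, where 18.2% and 18.9% of all genes were separated in these directions. The SD was larger in the TFEB-injected than in the not-injected group for 30 of the 44 genes, and for 59.2% of all genes. In 17 of the 23 called genes (73.9%) TFEB-injected replicate 3 lay farthest from the not-injected mean, which was so for 56.7% of all called genes in the series.

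**Figure D1:**
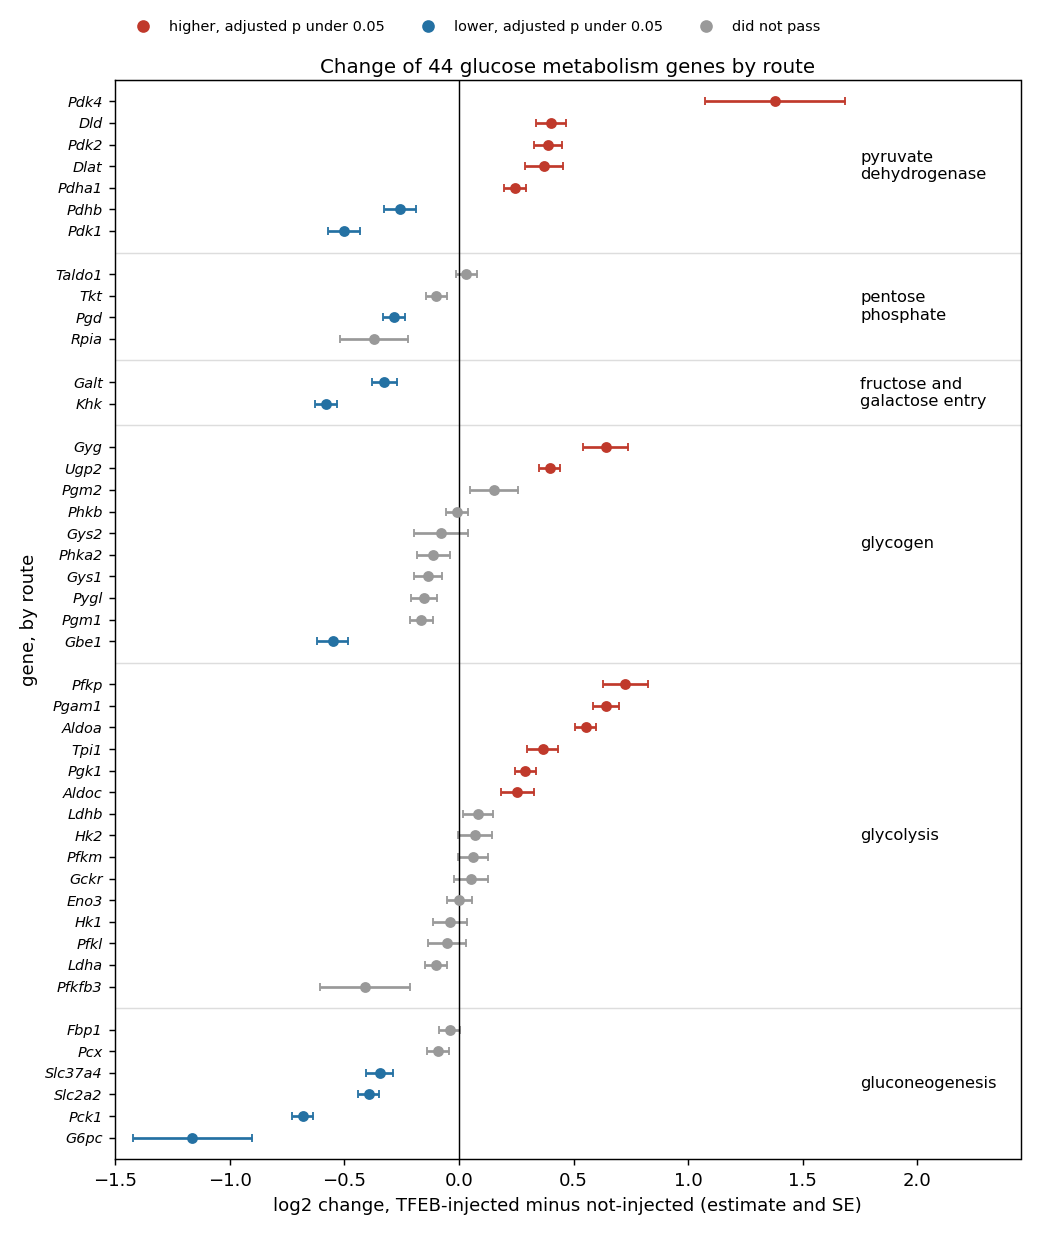
Log2 change of each of the 44 tested genes (horizontal axis, TFEB-injected minus not-injected, estimate with its SE), grouped by route; red marks genes that were higher and blue genes that were lower at an adjusted p under 0.05, and grey those that did not pass. Gluconeogenesis runs from G6pc at -1.16 to Fbp1 at -0.04, whereas the pyruvate dehydrogenase group reaches from Pdk1 at -0.50 to Pdk4 at 1.38.

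Several, but not all, listed genes for the making and release of glucose were lower. Of 6 measured gluconeogenesis genes 4 fell and 0 rose, with a median log2 change of -0.37. G6pc encodes the catalytic subunit of glucose-6-phosphatase, which frees glucose in the last step shared by gluconeogenesis and glycogen breakdown. Its level was 13.45, 13.42 and 13.42 in the not-injected livers and 12.76, 12.46 and 11.59 in the TFEB-injected livers. The groups did not overlap, and TFEB-injected replicate 3 was much the lowest array. The means of 13.43 ± 0.02 and 12.27 ± 0.60 (SD, n = 3) gave a log2 change of -1.16 ± 0.26 (SE; limma adjusted p = 0.0209), or 2.24-fold lower. The call did not survive dropping TFEB-injected replicate 2 or any single not-injected array (adjusted p up to 0.0713 over the 6 such fits), nor an intensity trend with a robust prior.

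Pck1, for the cytosolic phosphoenolpyruvate carboxykinase that opens the gluconeogenic route from oxaloacetate, moved evenly. It read 13.24, 13.16 and 13.18 in not-injected and 12.53, 12.53 and 12.49 in TFEB-injected livers. All 3 injected arrays lay together, far below the lowest not-injected array. The fall was larger than the spread in either group (log2 change -0.68 ± 0.05; adjusted p = 1.59e-04), and a dimmer second probe set gave -0.21. Slc2a2, for the glucose transporter GLUT2 of the hepatocyte surface, read 13.28 in each not-injected liver. It was 12.84, 12.89 and 12.92 in the TFEB-injected livers. The group means lay much further apart than the arrays within either group (-0.39 ± 0.04; adjusted p = 0.00124). Slc37a4, for the transporter that carries glucose-6-phosphate to glucose-6-phosphatase in the endoplasmic reticulum, fell by 0.35 ± 0.06 on the log2 scale (adjusted p = 0.00661).

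The other 2 gluconeogenesis genes of the list showed smaller differences. Fbp1, for fructose-1,6-bisphosphatase, read 14.37, 14.37 and 14.35 against 14.36, 14.33 and 14.26, and the groups overlapped (-0.04 ± 0.05; adjusted p = 0.607). Pcx, for the pyruvate carboxylase that supplies oxaloacetate, gave 11.74 ± 0.0075 (SD, n = 3) and 11.65 ± 0.07, without overlap but short of the threshold (-0.09 ± 0.05; adjusted p = 0.259). Decreases were thus called in Pck1, G6pc, Slc37a4 and Slc2a2, while Fbp1 and Pcx did not pass. With array weights Pcx fell (-0.11, limma adjusted p = 0.0197). Outside the list, Pck2, for the mitochondrial phosphoenolpyruvate carboxykinase, gave -0.03 ± 0.08. G6pc3, for another catalytic subunit of glucose-6-phosphatase, gave 0.07 ± 0.07, and neither Pck2 nor G6pc3 passed. Among the hepatocyte markers, Tat and Arg1 fell (20%, and 7.92% of all genes) and 0 of the other 8 tested passed. With an intensity trend and robust prior 5 of the 10 hepatocyte markers fell. Whether the hepatocyte share of the RNA had a part in the gluconeogenic falls was not tested.

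**Figure D2:**
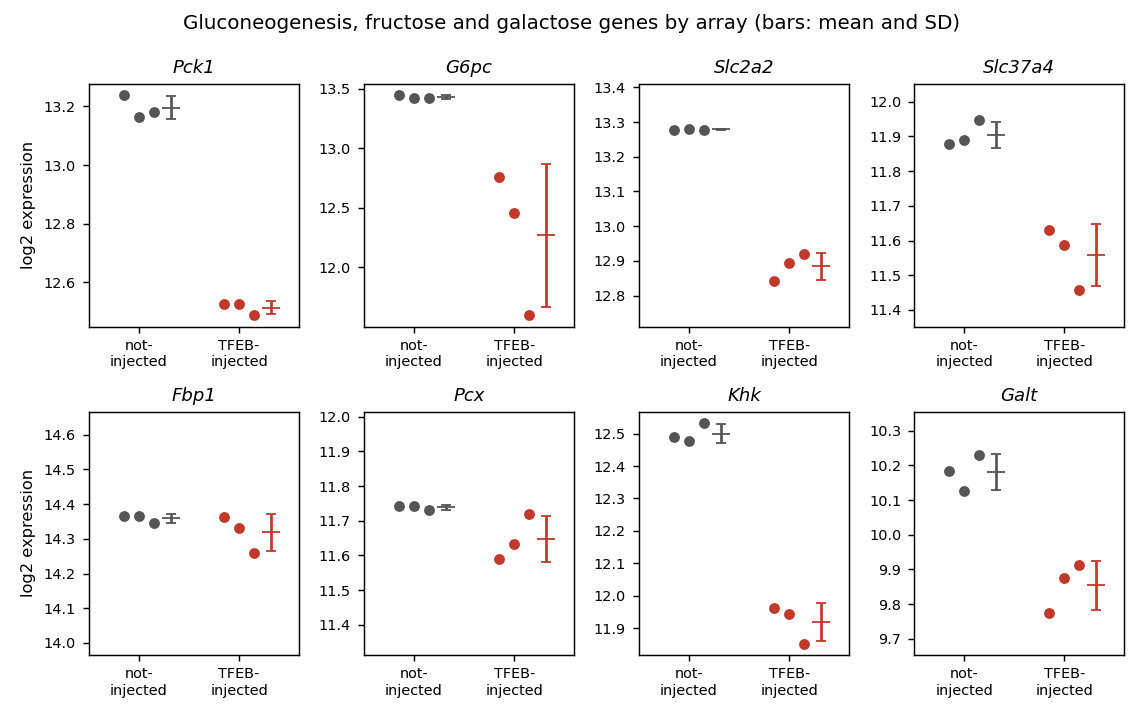
Log2 expression per array (vertical axis, cropped and set separately for each gene) of gluconeogenesis, fructose and galactose genes; grey points are the 3 not-injected and red points the 3 TFEB-injected livers, with the mean and SD beside them. Pck1 and Slc2a2 fell in tight groups, G6pc spread from 12.76 to 11.59 in the TFEB-injected livers, and Fbp1 overlapped.

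The Pck1 and G6pc promoters are shown because these 2 genes had the largest falls among the 6 gluconeogenesis genes and are textbook targets of cyclic AMP signalling in fasting. Promoters were taken from RefSeq (GRCm38.p6), which held 71 start sites for 49 of the 50 genes, and 250 bases before each start were searched on both strands. The letters TTACGTCA, a form of the cyclic AMP response element, occurred at 1 start site of the list, that of Pck1, and in 0.447% of all 32851 promoters. The related TTACGTAA occurred at that of G6pc and in 0.113% of all. The symmetrical form TGACGTCA occurred at Ldha and in 1.55% of all. Pck1 and G6pc lie on the plus strand, Pck1 at chr2:173152823-173153072 and G6pc at chr11:101367466-101367715; each run is written 5′ to 3′ and ends at the base before the start, with the matching letters in capitals. The letters TTACGTCA and TTACGTAA were paired with Pck1 and G6pc when the search was set up. Their shares over all promoters are therefore no test of these matches. No binding was measured in these livers, so the matches are a description of the sequence.
Pck1: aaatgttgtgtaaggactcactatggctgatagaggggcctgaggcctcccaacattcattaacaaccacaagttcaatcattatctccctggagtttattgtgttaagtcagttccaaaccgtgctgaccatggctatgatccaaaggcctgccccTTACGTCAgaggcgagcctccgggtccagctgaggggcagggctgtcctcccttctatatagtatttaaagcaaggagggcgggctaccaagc
G6pc: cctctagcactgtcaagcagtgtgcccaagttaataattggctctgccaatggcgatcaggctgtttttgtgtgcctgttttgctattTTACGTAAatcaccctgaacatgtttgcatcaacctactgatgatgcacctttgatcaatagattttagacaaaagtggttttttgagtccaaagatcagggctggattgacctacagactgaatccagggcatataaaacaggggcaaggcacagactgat

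Transcripts for 2 enzymes that handle dietary fructose and galactose also fell. Khk, for ketohexokinase, which phosphorylates fructose, read 12.49, 12.48 and 12.53 in not-injected and 11.96, 11.94 and 11.85 in TFEB-injected livers. The groups were far apart and each was narrow (log2 change -0.58 ± 0.05; adjusted p = 3.94e-04). Galt, for galactose-1-phosphate uridylyltransferase of the galactose pathway, read 10.18, 10.13 and 10.23 against 9.78, 9.88 and 9.91. It fell by 0.33 ± 0.06 on the log2 scale (adjusted p = 0.00703). Tkfc, for the triokinase that handles glyceraldehyde from fructose, is not among the 50 genes but fell by 0.73 ± 0.10 (adjusted p = 0.00268). Galm, for the galactose mutarotase and from the same further list as Tkfc, gave -0.0039 ± 0.04 and did not pass (adjusted p = 0.964).

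Khk and Galt are also shown by sequence, because TFEB is known to bind E-box letters, CACGTG, and prefers the extended palindrome GTCACGTGAC found near lysosomal genes. Both motifs read the same on either strand, and the longer contains the shorter. CACGTG occurred in 8 of the 71 promoters of the list (11.3%) and in 6.02% of all promoters. The 8 genes were Khk and Galt, which fell, Pdk2, which rose, Pcx, Ldha, Pfkm and Pfkfb3, which did not pass the test, and Galk1, which was not tested. The extended form occurred in the list only at Khk and in 0.24% of all promoters, and Khk is a gene that fell. Galt and Pdk2 each have 2 start sites in the table, and the letters lie before 1 of them, which is the one shown. Khk lies on the plus strand at chr5:30921309-30921558, Galt on the plus strand at chr4:41755267-41755516 and Pdk2 on the minus strand at chr11:95041372-95041621. Capitals mark the extended palindrome in Khk and CACGTG in the other 2. Of the 8 genes only those with a call are printed. No binding was measured, so these matches and their shares are no test of TFEB binding. Genes with these letters were thus seen among those that rose, those that fell and those that did not pass.
Khk: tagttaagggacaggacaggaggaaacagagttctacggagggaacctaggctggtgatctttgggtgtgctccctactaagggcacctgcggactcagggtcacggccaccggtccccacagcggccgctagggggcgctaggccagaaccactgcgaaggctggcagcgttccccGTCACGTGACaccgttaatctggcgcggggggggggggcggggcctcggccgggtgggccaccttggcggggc
Galt: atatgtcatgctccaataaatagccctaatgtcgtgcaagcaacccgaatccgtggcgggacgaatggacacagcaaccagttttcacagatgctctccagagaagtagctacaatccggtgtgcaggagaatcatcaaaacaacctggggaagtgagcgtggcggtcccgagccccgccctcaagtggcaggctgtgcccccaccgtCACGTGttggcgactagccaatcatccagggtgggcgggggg
Pdk2: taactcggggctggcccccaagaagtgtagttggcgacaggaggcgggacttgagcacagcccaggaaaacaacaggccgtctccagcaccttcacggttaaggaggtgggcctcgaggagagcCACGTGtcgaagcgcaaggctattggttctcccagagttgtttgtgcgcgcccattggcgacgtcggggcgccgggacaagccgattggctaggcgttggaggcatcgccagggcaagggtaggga

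Glycolysis is the route from glucose to pyruvate. Of its 15 measured genes 6 rose and 0 fell, with a median log2 change of 0.07. They were the platelet-type phosphofructokinase gene Pfkp, the aldolase genes Aldoa and Aldoc, and Tpi1, Pgk1 and Pgam1, for the triose steps that follow. Pfkp, which encodes an isoform that adult hepatocytes use little, rose most. It read 5.87, 5.98 and 5.95 in not-injected and 6.49, 6.62 and 6.88 in TFEB-injected livers. Each injected array was above each not-injected one (log2 change 0.73 ± 0.10; adjusted p = 0.00250), although a dimmer second probe set gave -0.01.

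Pgam1, for phosphoglycerate mutase, read 10.60, 10.49 and 10.65 against 11.18, 11.27 and 11.22. The rise was 1.56-fold, with little spread in either group (0.64 ± 0.06; adjusted p = 4.45e-04). Aldoa, for the aldolase isoform typical of muscle and many dividing cells, read 9.48, 9.48 and 9.45 against 9.98, 10.01 and 10.08. It rose 1.47-fold (0.55 ± 0.05; adjusted p = 3.78e-04), and its 3 further probe sets gave 0.44, 0.41 and 0.40. All 4 Aldoa probe sets end in _x_at. With probe sets ending in _x_at or _s_at left out, Aldoa could not be tested and 4 of 14 glycolysis genes were higher. Pgam1 and Aldoa thus moved by similar amounts in every injected liver.

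Tpi1, for triosephosphate isomerase, rose by 0.36 ± 0.07 (adjusted p = 0.0103), with 0.40 and 0.38 in 2 further probe sets. Pgk1, for phosphoglycerate kinase, rose by 0.29 ± 0.05 (adjusted p = 0.00554). Aldoc, for the brain-type aldolase, rose by 0.25 ± 0.07 at an adjusted p of 0.0497. Dropping any single array other than TFEB-injected replicate 1 ended that call (highest adjusted p 0.140), and a dimmer Aldoc probe set gave -0.14. The control probe sets for Gapdh, the dehydrogenase between Tpi1 and Pgk1, stood outside the fit. The one at the 3′ end read 13.13, 13.13 and 13.14 in not-injected and 13.18, 13.19 and 13.17 in TFEB-injected livers, a difference of 0.05. Control sets also bear on RNA integrity. The 3′ minus 5′ difference for Gapdh was 0.42 to 0.55 in not-injected and 0.36 to 0.50 in TFEB-injected livers. For Actb it was 1.64 to 1.72 and 1.64 to 1.80. Among the TFEB-injected livers both differences were largest in replicate 3 (0.50 and 1.80).

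The remaining 9 glycolysis genes did not pass the test. Gckr, for the regulatory protein that holds glucokinase in the nucleus, read 10.58, 10.55 and 10.63 against 10.48, 10.70 and 10.74, with overlapping groups (0.05 ± 0.08; adjusted p = 0.695). Hexokinases Hk1 (-0.04 ± 0.07) and Hk2 (0.07 ± 0.08), the phosphofructokinases Pfkl (-0.05 ± 0.08) and Pfkm (0.06 ± 0.07), the enolase gene Eno3 (0.0016 ± 0.05) and the lactate dehydrogenase gene Ldha (-0.10 ± 0.05) did not pass. Pfkfb3, for a bifunctional enzyme that sets the level of fructose-2,6-bisphosphate, was at 7.79, 7.49 and 6.91 in the TFEB-injected livers and 7.81, 7.74 and 7.87 in the others (-0.41 ± 0.20; adjusted p = 0.205). Its low value came from TFEB-injected replicate 3, and without TFEB-injected replicate 1 the change of -0.61 passed (adjusted p = 0.0401). The liver genes for glucokinase, aldolase B and the main enolase were not tested here, so the list shows these steps only through other isoforms.

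Ldhb, for the heart-type lactate dehydrogenase subunit, depended on the probe set. The brightest one read 7.60, 7.56 and 7.46 in not-injected and 7.56, 7.58 and 7.74 in TFEB-injected livers and did not pass (0.08 ± 0.07; adjusted p = 0.449). The remaining 3 probe sets were higher in each TFEB-injected liver than in any not-injected one, with changes of 1.44, 0.97 and 0.58, all past the threshold (limma, adjusted p = 0.00632, 0.0258 and 0.0208 over all probe sets). With the mean of its probe sets Ldhb rose by 0.77 (adjusted p = 0.0115). This gene was singled out after its values were seen.

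**Figure D3:**
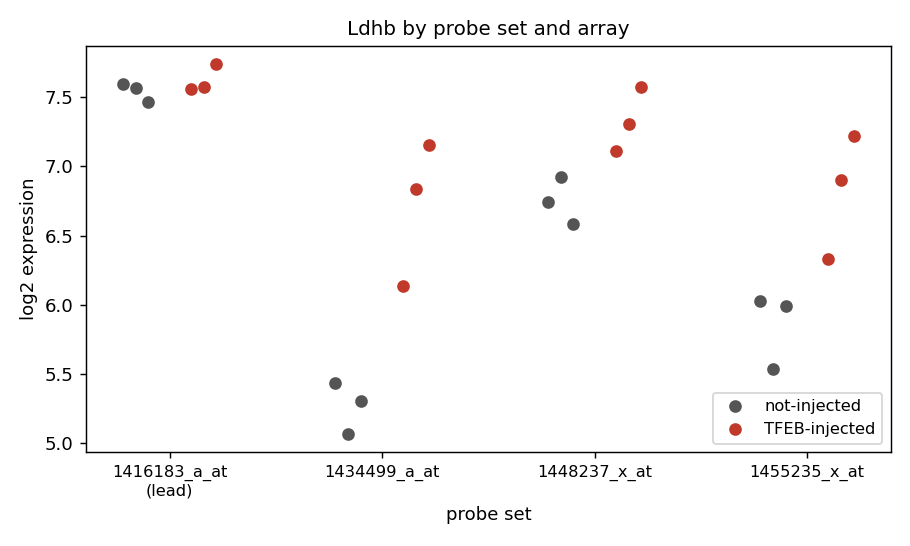
Log2 expression per array (vertical axis, cropped) for the 4 Ldhb probe sets; grey points are the 3 not-injected and red points the 3 TFEB-injected livers. The groups overlap in the lead probe set, near 7.6, and are apart in the other 3.

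Macrophages and Kupffer cells, the liver's resident phagocytes, also use several of these glycolytic isoforms. Of 15 of their markers (Cd5l, Vsig4, Clec4f, Csf1r, Cd68 and others) 11 rose (73.3%, and 9.99% of all genes) and 0 fell. Their median change was 0.45. Their summed level was 13.42 to 13.47 in not-injected and 13.81 to 14.05 in TFEB-injected livers, with the lowest injected value in replicate 3. Among endothelial markers 2 of 10 rose (20%, and 9.99% of all genes), Stab2 (1.42 ± 0.05) and Lyve1 (0.89 ± 0.07). Both encode receptors of sinusoidal endothelium that bind hyaluronan. The other 8 did not pass, and the median change of the endothelial list was -0.02. Summed levels were 11.93 to 12.01 in not-injected and 12.13 to 12.35 in TFEB-injected livers. Of 11 stellate cell and fibroblast markers 3 rose (27.3%, and 9.99% of all genes) and 2 fell (18.2%, and 7.92% of all genes). Their summed levels were 12.80 to 12.84 in both groups. Among 4 erythroid markers Alas2 fell by 0.81 ± 0.07. Hba-a1 (0.03 ± 0.06), Slc4a1 (0.07 ± 0.07) and Epb42 (-0.14 ± 0.07) did not pass. The summed level, nearly all of it Alas2, went from 10.21 to 10.23 down to 9.39 to 9.62. The part of these cell types in the changes of glycolysis, glycogen and pyruvate dehydrogenase genes was not tested.

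Of 10 glycogen genes 2 were higher (20%, and 9.99% of all genes) and 1 was lower (10%, and 7.92% of all genes). Their median change was -0.09. Counts this small do not set the route apart from all genes. Gyg, for glycogenin, the protein primer on which a glycogen particle starts, read 7.03, 6.92 and 7.08 in not-injected and 7.44, 7.68 and 7.83 in TFEB-injected livers. It rose 1.56-fold (log2 change 0.64 ± 0.10; adjusted p = 0.00471), without overlap. Ugp2, for the pyrophosphorylase that makes UDP-glucose, the building block of glycogen, read 13.35, 13.32 and 13.33 against 13.78, 13.72 and 13.70. It rose by 0.40 ± 0.05 (adjusted p = 0.00134), and its 4 further probe sets gave 0.38 to 0.52. Gbe1, for the branching enzyme, went the other way, from 10.69, 10.78 and 10.74 to 10.31, 10.19 and 10.07. The fall was 1.47-fold (-0.55 ± 0.07; adjusted p = 0.00168).

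The enzymes that build and take down the glycogen chain in liver showed no call. Gys2, for liver glycogen synthase, was at 10.23, 10.21 and 10.20 in not-injected and 10.36, 10.20 and 9.85 in TFEB-injected livers. One injected liver was above, one within and one below the not-injected range (-0.08 ± 0.12; adjusted p = 0.708), and without TFEB-injected replicate 3 the estimate was 0.06. Pygl, for liver glycogen phosphorylase, read 13.20, 13.22 and 13.18 against 13.14, 13.04 and 12.96, which did not overlap (-0.15 ± 0.06; adjusted p = 0.107). It passed with an intensity trend and robust prior (adjusted p = 0.0259) and without TFEB-injected replicate 1 (adjusted p = 0.0497). The phosphoglucomutase gene Pgm1 (-0.16 ± 0.05; adjusted p = 0.0620) also lay just short of the threshold, and it passed after median centring (adjusted p = 0.0329) and under 4 further alternatives. Pgm2 (0.15 ± 0.10), the muscle-type synthase gene Gys1 (-0.13 ± 0.06) and the phosphorylase kinase subunits Phka2 (-0.11 ± 0.07) and Phkb (-0.01 ± 0.05) did not pass. Ppp1r3c, for a glycogen-targeting subunit of protein phosphatase and not one of the 50 genes, fell by 0.82 ± 0.09 (adjusted p = 0.00128).

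**Figure D4:**
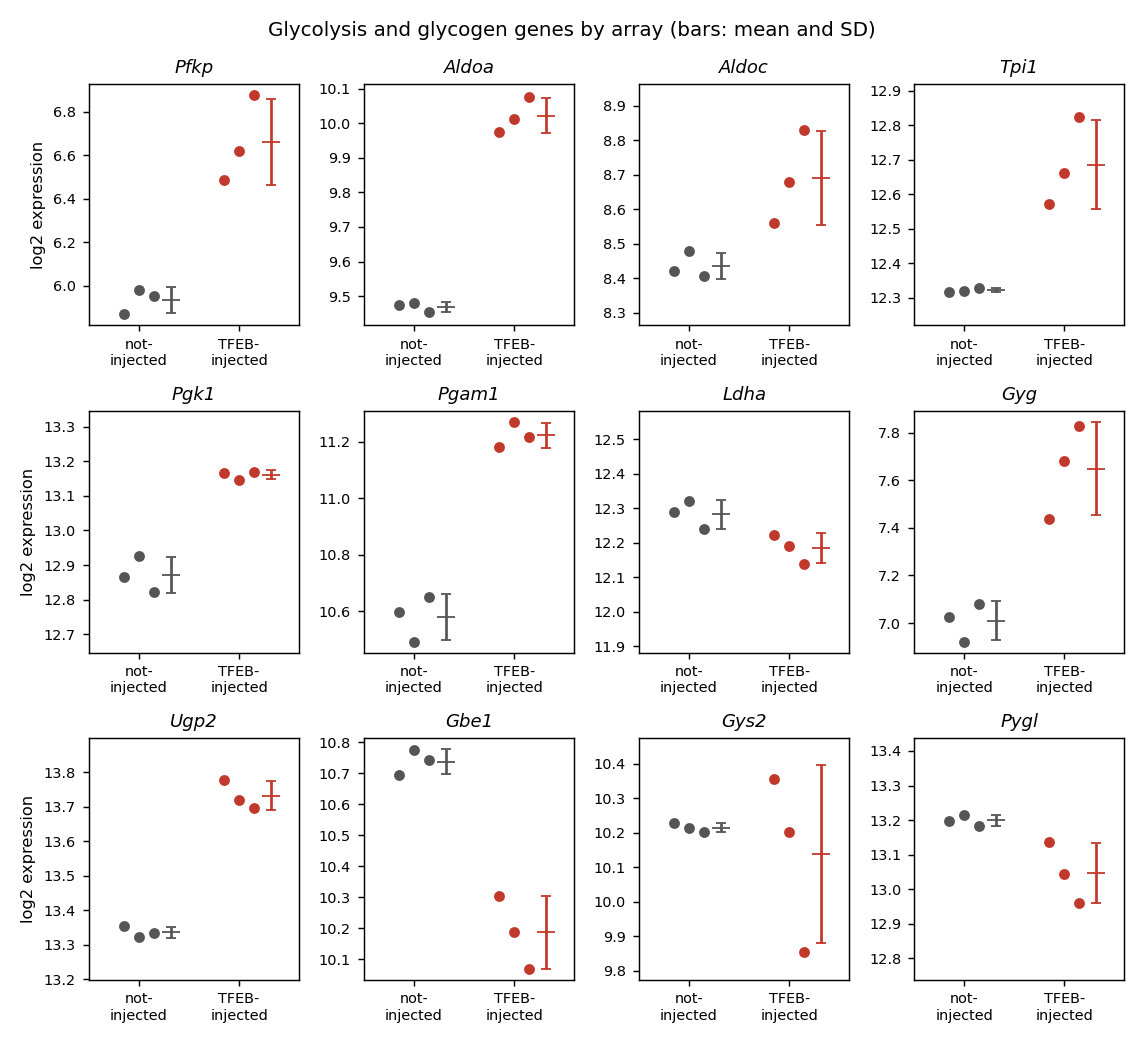
Log2 expression per array (vertical axis, cropped and set separately for each gene) of glycolysis and glycogen genes; grey points are the 3 not-injected and red points the 3 TFEB-injected livers, with the mean and SD beside them. Pgam1, Pgk1 and Ugp2 rose in narrow groups, Gbe1 fell, and Gys2 spread from 10.36 to 9.85 in the TFEB-injected livers.

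The pentose phosphate pathway, which makes NADPH and ribose, had 1 call among 4 measured genes, a fall (25%, and 7.92% of all genes). Pgd, for 6-phosphogluconate dehydrogenase, its second NADPH-producing enzyme, read 10.64, 10.74 and 10.72 in not-injected and 10.38, 10.42 and 10.45 in TFEB-injected livers. It fell by 0.28 ± 0.05 on the log2 scale (adjusted p = 0.00707). Its 3 further probe sets gave -0.16, -0.28 and -0.23, and the call was lost when probe sets ending in _x_at or _s_at were left out. Rpia, for ribose-5-phosphate isomerase, was lower in each injected liver, at 8.48, 8.32 and 7.85 against 8.58, 8.54 and 8.65, but did not pass (-0.37 ± 0.15; adjusted p = 0.133), and it passed without TFEB-injected replicate 1 (-0.50; adjusted p = 0.0443). Tkt, for transketolase (-0.10 ± 0.05), and Taldo1, for transaldolase (0.03 ± 0.05), did not pass either.

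All 7 listed genes of the pyruvate dehydrogenase complex and its kinases passed, 5 higher and 2 lower, with a median change of 0.37. The kinase gene Pdk3, measured but outside the list, did not pass. Among the kinases, which inactivate the complex, Pdk4 rose, Pdk2 rose and Pdk1 fell. Pdk4, the isoform raised by fasting and a classical PPAR-alpha target, read 7.49, 7.32 and 7.31 in not-injected and 8.0, 8.87 and 9.39 in TFEB-injected livers. Every injected liver was higher, but by amounts that differed widely. The mean rise was 2.60-fold (log2 change 1.38 ± 0.30; adjusted p = 0.0202), but dropping TFEB-injected replicate 2 or any single not-injected array ended the call (highest adjusted p 0.0750), as did an intensity trend with a robust prior.

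Pdk2, the widely expressed isoform, read 7.59, 7.56 and 7.52 against 7.83, 8.0 and 8.0. It rose by 0.39 ± 0.06 (adjusted p = 0.00483). Pdk1, a target of hypoxia signalling, read 11.18, 11.20 and 11.14 against 10.54, 10.69 and 10.79. It fell 1.42-fold (-0.50 ± 0.07; adjusted p = 0.00283), and a second probe set gave -0.40. Here TFEB-injected replicate 1 lay farthest from the not-injected livers, whereas for Pdk4 it lay nearest. Pdk3, not one of the 50 genes, gave -0.04 ± 0.09 (adjusted p = 0.804).

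The subunits of the complex moved in both directions. Dld, for the E3 dihydrolipoamide dehydrogenase that the complex shares with other ketoacid dehydrogenases, read 10.72, 10.74 and 10.63 in not-injected and 11.03, 11.05 and 11.22 in TFEB-injected livers. It rose by 0.40 ± 0.07 (adjusted p = 0.00606). Dlat, for the E2 acetyltransferase core, rose by 0.37 ± 0.08 (adjusted p = 0.0195), and Pdha1, for the E1 alpha subunit, by 0.25 ± 0.05 (adjusted p = 0.0127). Pdhb, for the E1 beta subunit that pairs with E1 alpha, read 12.02, 12.06 and 12.05 against 11.88, 11.83 and 11.64 and fell by 0.26 ± 0.07 on the log2 scale (adjusted p = 0.0401). A dimmer Pdhb probe set gave -0.49, and a second one of Pdha1 gave 0.19. Dimmer Dlat probe sets gave 0.39 and 0.15, and the one at 0.15 overlapped and did not pass (limma adjusted p = 0.456 over all probe sets). Dropping TFEB-injected replicate 2 or any single not-injected array ended the calls of Dlat (highest adjusted p 0.0723) and Pdhb (highest adjusted p 0.119). The partner subunits of E1 thus differed in the sign of their estimates, which was also the case in their second probe sets.

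**Figure D5:**
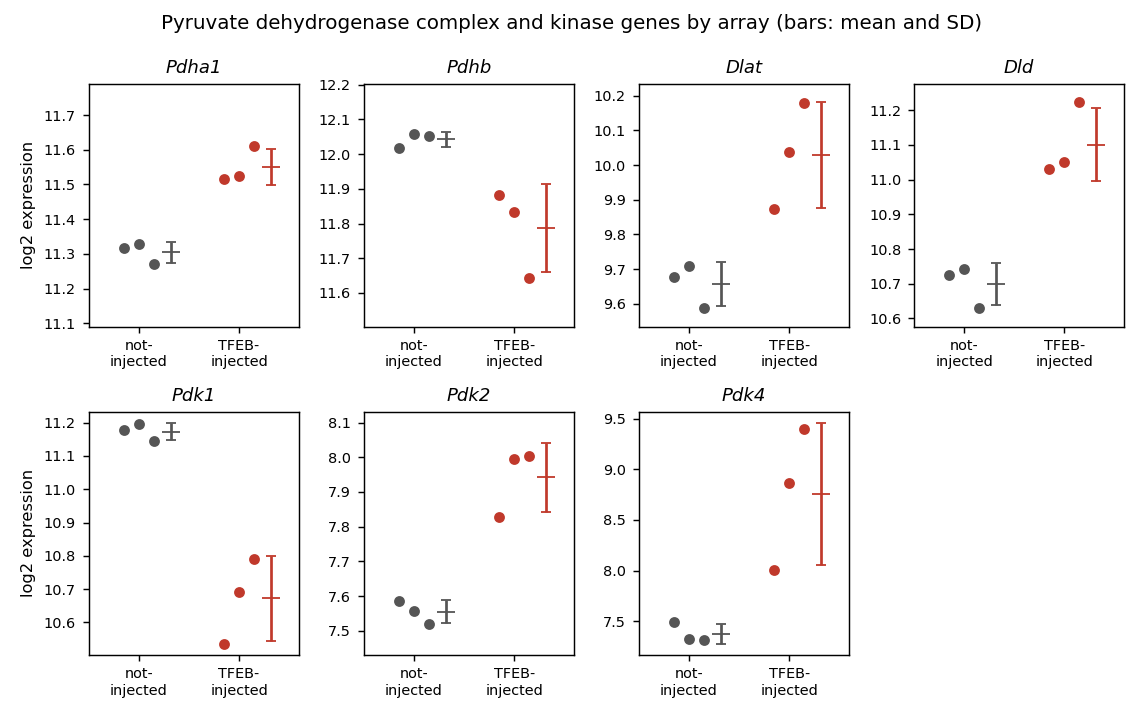
Log2 expression per array (vertical axis, cropped and set separately for each gene) of pyruvate dehydrogenase complex and kinase genes; grey points are the 3 not-injected and red points the 3 TFEB-injected livers, with the mean and SD beside them. None of the 7 genes overlap between the groups, Pdhb and Pdk1 are lower, and Pdk4 spreads from 8.0 to 9.39 in the TFEB-injected livers.

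Further enzymes of the same routes were taken from a second list, of which 36 of 54 were tested, with 5 higher (13.9%, and 9.99% of all genes), 3 lower (8.33%, and 7.92% of all genes) and a median of -0.03. These shares are near those of all genes. The monocarboxylate transporter genes Slc16a7 (1.70 ± 0.09; adjusted p = 7.22e-05) and Slc16a1 (0.46 ± 0.04), whose products carry lactate and pyruvate across membranes, rose. Slc16a7 went from 9.25 to 10.95 in mean level, the largest estimate in that list. The mitochondrial malate dehydrogenase gene Mdh2 rose by 0.35 ± 0.04. Bpgm (0.28 ± 0.08) and Pygb (0.32 ± 0.09) also passed, but dropping any single array ended the call of Pygb (highest adjusted p 0.109), and dropping any but not-injected replicate 3 ended that of Bpgm (highest adjusted p 0.143). With TFEB-injected replicate 2 or 3, or not-injected replicate 1 or 2, dropped, the count of 5 became 3, and it was 3 after median centring. Besides Tkfc and Ppp1r3c, the glycerol-3-phosphate dehydrogenase gene Gpd1 fell by 0.55 ± 0.10 on the log2 scale. Pklr, for liver pyruvate kinase, gave 0.08 ± 0.05 and did not pass.

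Hormone and transcription control genes of glucose metabolism had 10 of 35 lower (28.6%, and 7.92% of all genes), 2 higher (5.71%, and 9.99% of all genes) and a median of -0.14. The count of 10 was 7 to 11 with a single array dropped and 21 with array weights; Foxo3 lost its call whichever array was dropped. Igfbp1 (-0.59 ± 0.07), an insulin-repressed secreted binding protein, Tat (-0.49 ± 0.05), for a glucocorticoid-induced aminotransferase, Srebf1 (-0.79 ± 0.11), for an insulin-induced lipogenic factor, Cebpb (-0.34 ± 0.05), for a factor that activates Pck1, and Klf15 (-0.30 ± 0.05), for a factor of amino acid catabolism and gluconeogenesis, had the smallest p values among those that fell. The 2 that rose were Ppargc1a (2.25 ± 0.32), for the coactivator PGC-1alpha, and Esrra (0.38 ± 0.06), for its partner receptor ERR-alpha. PGC-1alpha is known to activate Pck1 and G6pc in fasting liver, and with ERR-alpha it is known to activate Pdk4. In these livers Ppargc1a and Pdk4 were higher while Pck1 and G6pc were lower. Whether PGC-1alpha had a part in any of these changes was not tested. The insulin receptor gene Insr (-0.14 ± 0.05), the glucagon receptor gene Gcgr (-0.15 ± 0.04) and Foxo1 (0.21 ± 0.08) did not pass.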

How the data were processed

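Total liver RNA from 6 mice was profiled on Affymetrix arrays, with groups and replicate numbers from the sample titles. The authors' processing was RMA with affy, per the submitters' processing notes; no version is stated there. Deposited values are on a log2 scale, from 3.08 to 15.2, with array medians of 6.92 to 6.93. RMA sets arrays to one distribution, which hides overall shifts in RNA content and can understate folds of dim genes. Of 22690 probe sets, 20393 had 1 gene symbol in the platform annotation, 691 several and 1606 none; gene IDs of 20364 matched the RefSeq table, and 0 symbols changed. Pgm1 and Pgm2, whose names have been exchanged in the past, follow the current gene IDs. Without the 64 controls, 20380 probe sets for 12393 genes entered, with the brightest per gene as its lead. Of the 44 genes 19 had several, and in 5 (Aldoc, Gys1, Pfkfb3, Pfkp and Phka2) another one had the opposite sign. Probe sets ending in _x_at or _s_at can detect related genes.

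Differences (TFEB-injected minus not-injected) were fitted with limma 3.58.1 (R 4.3.3) over all genes, with Benjamini-Hochberg adjustment and a threshold of 0.05, below which "rose" and "fell" are used; the fit was tested on simulated data. Errors are SD of 3 arrays for levels and SE for changes. The members and lists were chosen with earlier results of these data known. By rule, each route's 3 separated calls with the greatest change per direction, and Pck1, G6pc, Fbp1, Gckr, Gys2, Pygl and Pdk4, were given by array, and of the further lists the 5 calls with the smallest p per direction were named. Ldhb, Pfkfb3, Rpia and uncalled genes of the further lists were added after their values were seen, as were the alternatives for counts of the further lists.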

Additional observations from a re-analysis of the deposited data

Results flagged for a closer look

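Besides its lead probe set, which did not pass, 3 Ldhb probe sets showed a signal that the one-probe-set comparison leaves unused. They gave log2 changes of 1.44, 0.58 and 0.97, with every TFEB-injected array above every not-injected array. Their levels in the not-injected livers, 5.27, 6.75 and 5.85 on average, were below that of the lead at 7.54. Which of the 4 follows the Ldhb transcript was not tested.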

How the results depend on the processing

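Of the 23 called genes, 16 kept their sign and call under every alternative that tested them at a threshold of 0.05, and 18 did so with each array dropped in turn. Over the 44 genes, 589 of 651 refits kept sign and side of the threshold. Without 1 array the counts were 10 to 13 higher and 8 to 13 lower over the list; in gluconeogenesis 0 to 0 higher and 3 to 4 lower, glycolysis 5 to 6 and 0 to 1, glycogen 2 to 2 and 1 to 2, fructose and galactose entry 0 to 0 and 2 to 2, pentose phosphate 0 to 0 and 1 to 2, and pyruvate dehydrogenase 3 to 5 and 1 to 2. With array weights, whose estimation stopped short of its tolerance, 19 genes were lower, 2 of them in glycolysis, 5 in glycogen and 3 in the pentose phosphate pathway. At a false discovery rate of 0.01, 8 genes were higher, and the pyruvate dehydrogenase group had 2 higher and 1 lower. Glycogen genes gave 2 lower after median centring, 2 with cyclic loess, 3 with an intensity trend and robust prior, and 1 higher and 2 lower with dim genes left out. Pentose phosphate genes gave 0 lower without _x_at and _s_at probe sets. The labels do not say whether the replicate numbers pair the mice. Deviations of same-numbered arrays correlated at 0.01, -0.13 and -0.11, which shows no pairing but cannot exclude one with so few arrays. With the replicate number as a block, 10 genes were higher and 9 lower, the pyruvate dehydrogenase group had 3 higher and 1 lower, and 610 genes in all were lower instead of 981. Signs turned in 10 refits, all of genes without a call. Hk1 gave 0.036 with array weights and -0.081 to 0.033 with an array dropped, Pfkl 0.042 with array weights, Eno3 -0.029 after median centring and -0.033 to 0.021 with an array dropped, Phka2 0.017 with the mean of its probe sets, Gys2 -0.19 to 0.065 and Phkb -0.036 to 0.020 with an array dropped. Over all genes, 1238 rose and 981 fell, against 1060 and 1352 after median centring, 2717 and 3137 with array weights, 722 and 507 without TFEB-injected replicate 2, 746 and 525 without not-injected replicate 1, and 800 and 545 without not-injected replicate 2; 593 fell without not-injected replicate 3. The causes were not tested. No detection calls were used, so whether dim probe sets, such as those of Hk1 and Pfkp, exceed background was not tested.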
